A study of Bos taurus with 4 samples.

Results

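Granulosa cells, the somatic cells that surround the oocyte and make oestradiol, keep their identity through a small set of transcription factors. The genes described here are 9 of these factors: the nuclear receptors NR5A1, NR5A2, NR0B1, ESR1 and ESR2, the forkhead factor FOXL2, the zinc-finger factor WT1, and the GATA factors GATA4 and GATA6. They were taken by gene symbol from the platform's annotation, which names 12 of the array's 43794 probes for 8 of them, out of 15229 genes named there. WT1 and NR5A2 have 3 probes each, the other 6 genes have 1 each, and no probe carries the symbol GATA6, which is therefore not analysed here.

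The study compared granulosa cells of Holstein cows kept for embryo production whose oocytes mostly had (good donors) or mostly lacked (poor donors) the capacity to develop. The design text gives 94 cows, all of which went through ovarian stimulation followed by coasting, a pause without gonadotrophin before collection. RNA was pooled within donor groups, and 4 two-colour arrays each set 1 good-donor pool against 1 poor-donor pool. Good-donor pools 1 and 2 were labelled with Cy5 against poor-donor pools 5 and 6 with Cy3 (arrays 1 and 2). The dyes were exchanged on arrays 3 and 4, which set poor-donor pools 7 and 8 in Cy5 against good-donor pools 3 and 4 in Cy3. The labels give neither the number of cows in a pool nor their ages, so p-values measure variation among pools and arrays, not among cows. In the main fit a dye term takes up any difference of arrays 1 and 2 from arrays 3 and 4. Its p-values rest on how far array 1 departs from array 2 and array 3 from array 4, together with limma's prior. An SD over 4 arrays printed beside such a p-value also holds the difference that the dye term removes. RNA was amplified over 2 rounds before labelling.

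NR5A1 (steroidogenic factor 1) and NR5A2 (liver receptor homologue 1) bind the same kind of DNA element and switch on steroidogenic genes, and in mouse granulosa cells NR5A2 is needed for ovulation and luteinisation. NR0B1 (DAX1) binds to NR5A receptors and represses them. FOXL2 keeps granulosa cells from taking on a Sertoli-like state in adult mice, WT1 marks granulosa cells of small follicles, and GATA4 and GATA6 act on the genes of gonadotrophin response and steroid synthesis. Oestradiol acts in granulosa cells mainly through ESR2, while ESR1 is known more from theca and stroma.

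The cells carried the marks of the labelled type. The granulosa markers FSHR, CYP19A1, INHA and AMH were above background in all 8 pools, and 7 of the 8 listed markers were so in every pool, the exception being FOXL2. The summed linear level of the granulosa markers was 102240 to 169770 in good-donor and 68330 to 163750 in poor-donor pools. These sums separated by dye, with 142000 to 169800 in the Cy5 pools 1, 2, 7 and 8 and 68330 to 109300 in the Cy3 pools 3 to 6. INHA and SERPINE2, the brightest of these markers, reached 87.2% and 96.1% of the highest raw intensity, and the effect on the sums was not tested. The fitted differences of all 8, FOXL2 among them, were below 0, with a median of -0.093 on the log2 scale and 0 past the adjusted threshold. Over all genes 5451 were lower and 5525 higher. FOXL2 entered the test only through the good-donor pools. INHA and SERPINE2 were below 0 on arrays 1 and 2 and above 0 on arrays 3 and 4. Theca and stroma markers were also measured: the theca enzyme gene CYP17A1 was above background in all 8 pools with log2 levels of 6.41 to 6.51, where negative-control spots had medians of 6.18 to 6.23. The collagen gene COL1A1 had levels of 7.62 to 9.17 and was above 0 on all 4 arrays, at 0.46 ± 0.27 (SD, n = 4; limma unadjusted p = 0.0177, adjusted p = 0.822). The summed linear level of the 9 measured theca and stroma markers was 8564 to 14009 in good-donor pools and 14521 to 16828 in poor-donor pools. LUM had the widest difference of them, at 1.85 ± 1.25 on the log2 scale (SD, n = 4). Its log2 levels were 11.14, 9.10, 9.42 and 9.59 in good-donor pools 1 to 4 and 11.31, 11.75, 11.07 and 12.53 in poor-donor pools 5 to 8. LUM is part of these sums and a sum without it was not computed, so their separation is not shown for the list as a whole. By sign 6 of the 9 were higher and 3 lower, the latter being CYP17A1 at -0.0041, INSL3 at -0.025 and NR2F2 at -0.095. How often the sums of other lists separate in this way was not computed. Of single tested probes, centred per dye, 2.07% separated fully with poor donors higher. That share is no reference for the sums, which are linear, add several genes and are not centred per dye. The summed surface epithelium markers spanned 9716 to 39944 and 19604 to 58639, and the leukocyte markers 923 to 1412 and 850 to 1697. Endothelial markers, with 3 of 5 measured, summed to 261 to 389 in good-donor and 291 to 390 in poor-donor pools, and PECAM1 was above background in 0 pools. Of 6 oocyte markers 2 were measured, with sums of 198 to 205 and 185 to 200. In such bulk RNA fewer cells of a type and less RNA per cell cannot be told apart, and the part of other cell types in the values below was not tested.

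The probes of the 9 genes differed widely in how far they stood above background. A probe counted as above background in a pool where its raw intensity passed the mean of that channel's negative controls by 2 SD, which is 1.11 to 1.15 times that mean. The brightest NR5A2 probe stood at 50.02 to 101 times the negative-control mean and the GATA4 probe at 88.7 to 183 times. The single probes of NR5A1, NR0B1 and ESR2 were above background in all 8 pools, at 1.67 to 2.08, 1.54 to 2.27 and 1.51 to 2.37 times the negative-control mean. FOXL2 was above background in 7 pools and below it in pool 7, at 0.964 times the negative-control mean. ESR1 was above background in 0 of 8 pools, at 0.840 to 0.979 times, so it was not well above background in any pool and its ratios are not read. The brightest WT1 probe passed in all 8 pools, its other probes in 6 and 5 pools. The test took probes that passed in every pool of the good donors or in every pool of the poor donors, and 9 of the 12 probes, for 7 genes, met this. Brightness depends on the probe and is not compared between genes.

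**Figure D1:**
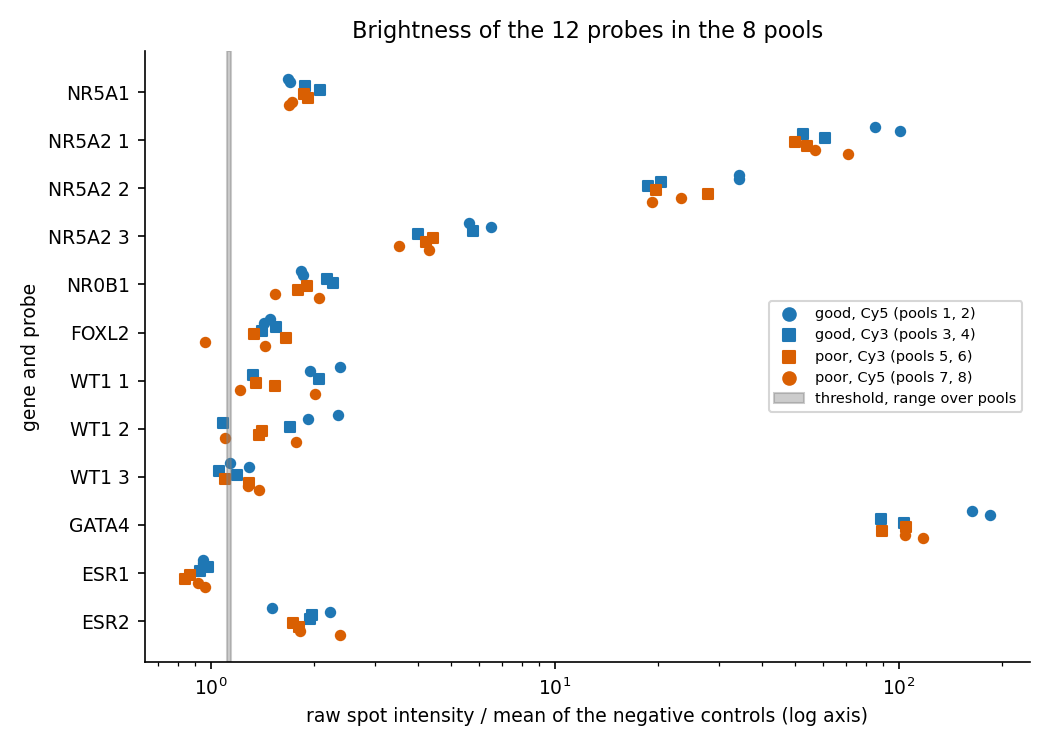
Raw spot intensity of each probe in each pool, divided by the mean of the negative-control spots of that channel, on a log axis. Points are single pools, coloured by donor group and shaped by dye, and the grey band is the range of the threshold over pools; probes of a gene are numbered from the brightest. NR5A2 and GATA4 lie far to the right of the band, ESR1 lies to its left in every pool, and the remaining genes lie close to it.

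Between poor and good donors, no probe of these genes passed the test after adjustment over all probes tested. A limma fit with a dye term called 0 of 26181 probes (0%) at an adjusted p under 0.05, and 1560 (5.96%) had an unadjusted p under 0.05, 3.26% with lower and 2.7% with higher values in poor donors. For single genes, represented by their brightest tested probe, an unadjusted p under 0.05 was reached by 6.97% of 10976 genes, and 3.89% were lower in poor donors at that level. Of the 7 measured transcription factor genes, 2 reached it, NR5A2 and WT1, and both were lower in poor donors. This count was 0 of 7 without array 3 and also without array 4, and it was NR5A2 and GATA4 without array 1. By the sign of the fitted difference 6 were lower and 1 higher, with a median of -0.14 on the log2 scale, against 5451 lower and 5525 higher and a median of 0.0008 over all genes. FOXL2, one of the 6, entered the test only through the good-donor pools, and without it 5 were lower and 1 higher. Ratios below 0 on all 4 arrays were found for 2 of the 7, NR5A2 and GATA4, where 6.05% of all genes and 5.89% of all tested probes had such ratios. Ratios above 0 on all 4 arrays were found for 0 of the 7, against 5.46% of tested probes. With 7 genes measured in the same pools these counts are a description of the list.

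**Figure D2:**
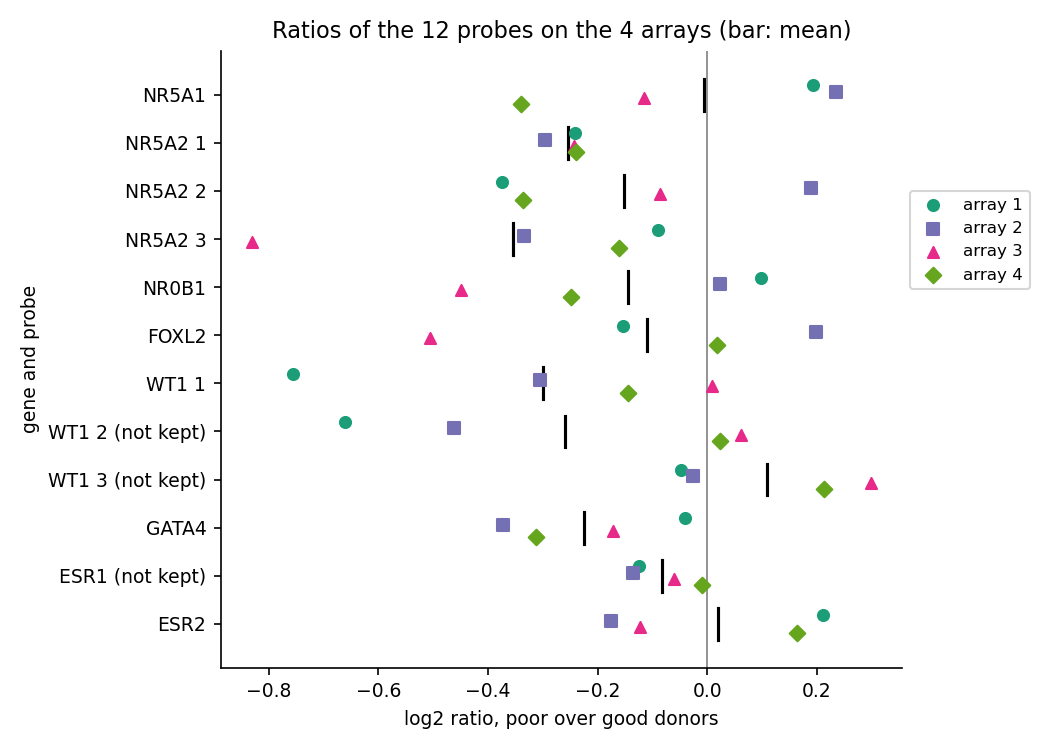
Log2 ratio of poor over good donors for each of the 12 probes (horizontal axis), with 1 symbol per array and a black bar at the mean of 4 arrays; probes that were not tested are marked as not kept. The brightest NR5A2 probe has its 4 ratios between -0.30 and -0.24, GATA4 has all of them below 0, and the ratios of NR5A1 lie on both sides of 0.

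NR5A2 gave the most even ratios of the set. For its brightest probe, the log2 levels were 12.15, 12.38, 11.999 and 12.13 in good-donor pools 1 to 4 and 11.91, 12.08, 11.76 and 11.90 in poor-donor pools 5 to 8. Pool 6 was above pool 3, so the pools of the donor groups overlapped, but on each array the poor-donor pool was the lower one. Arrays 1 to 4 had ratios of -0.24, -0.30, -0.24 and -0.24. Their mean was -0.25 ± 0.028 (SD, n = 4), a 1.19-fold difference. The 95% interval was -0.42 to -0.09 and the limma p was 0.0114 unadjusted and 0.822 adjusted. Only 0.535% of the tested probes had a smaller SD over the arrays, and 1.17% had a smaller p. Leaving out any array kept the difference between -0.27 and -0.24.

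The other NR5A2 probes shared the sign of the mean but not the evenness. The second probe had levels of 10.88, 10.86, 10.63 and 10.42 in good-donor pools and 10.50, 11.05, 10.54 and 10.08 in poor-donor pools. Its ratios of -0.37, 0.19, -0.09 and -0.34 gave -0.15 ± 0.26 (SD, n = 4; limma adjusted p = 0.891), so that array 2 ran the other way. The third and dimmest probe stood at 8.36, 8.57, 8.81 and 8.20 in good-donor and 8.27, 8.24, 7.98 and 8.04 in poor-donor pools. It had -0.09, -0.33, -0.83 and -0.16, which is -0.35 ± 0.33 (SD, n = 4; limma adjusted p = 0.830), with pool 3 highest and pool 7 lowest. On a given array the 3 probes lay 0.29, 0.52, 0.75 and 0.18 apart, against 0.06 for the range of the brightest probe over the 4 arrays. Their fitted differences spanned 0.20, close to the median span of 0.18 among the 776 genes with 3 tested probes, of which 36.7% had 1 sign in all 3. The transcript that each probe matches is not known here.

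**Figure D3:**
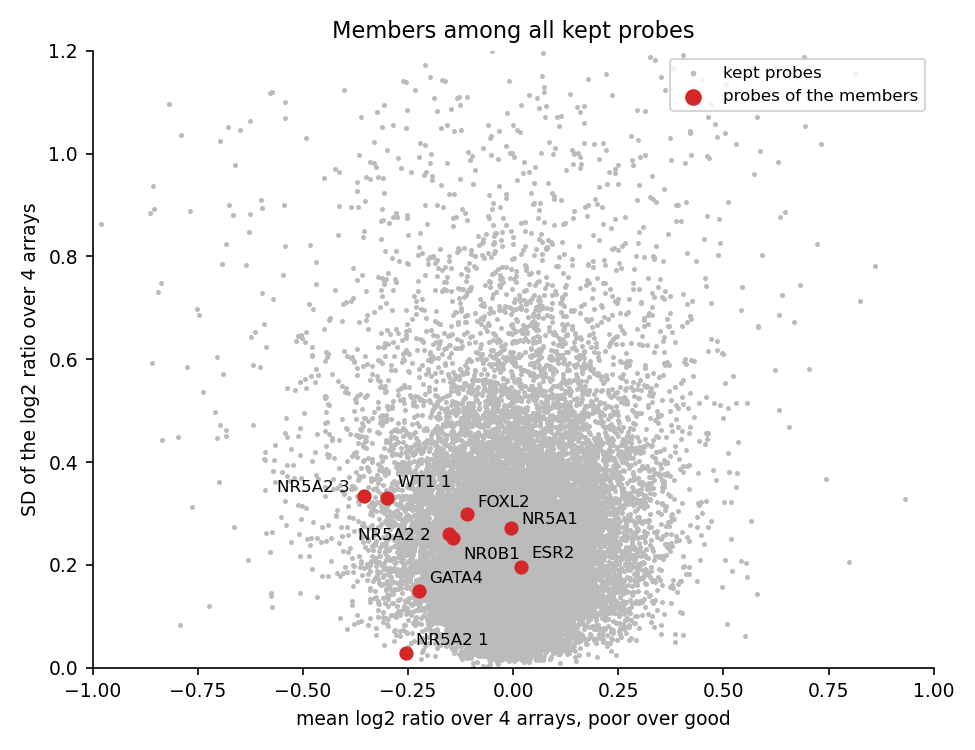
Mean log2 ratio over the 4 arrays (horizontal axis) against its SD over the arrays (vertical axis) for the tested probes in grey and the 9 tested probes of the transcription factor genes in red; 215 probes lie outside the axes. The brightest NR5A2 probe (NR5A2 1) sits at the lower edge of the cloud with an SD of 0.03, while its other probes (NR5A2 2 and 3) have SDs of 0.26 and 0.33.

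NR5A1, the close relative of NR5A2, had ratios on both sides of 0. Its levels were 6.84, 6.86, 7.12 and 7.24 in good-donor pools and 7.03, 7.10, 7.01 and 6.90 in poor-donor pools. Without a dye correction, every poor-donor value was inside the range of the good-donor pools. After subtracting the mean of the 4 pools in the same dye, the good-donor pools had -0.062 to 0.12. Pool 5, a poor-donor pool, was then below them at -0.089. Arrays 1 and 2 had ratios of 0.19 and 0.23, while -0.11 and -0.34 came from arrays 3 and 4. Their mean was -0.006 ± 0.27 (SD, n = 4; limma adjusted p = 0.993), with a 95% interval of -0.20 to 0.18. The dye term was -0.22 (adjusted p = 0.371), and it cannot be told apart from differences between the pools of the array pairs. Among all tested probes, 12.2% had an unadjusted p under 0.05 for this term and 0% passed after adjustment. Whether NR5A1 and NR5A2 differ in their response was not tested.

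NR0B1, the repressor of both receptors, shared the order of array pairs with NR5A1. Levels of 6.96, 6.97, 7.37 and 7.36 were measured in good-donor pools and of 7.06, 6.99, 6.92 and 7.11 in poor-donor pools. Pools 3 and 4 were above the other 6 pools, all of which lay between 6.92 and 7.11. These levels are not corrected for dye. Centred per dye, pools 3 and 4 were at 0.17 and 0.16, poor-donor pool 8 at 0.12 and the remaining pools at -0.20 to -0.023. The ratios were 0.10, 0.02, -0.45 and -0.25, with a mean of -0.14 ± 0.25 (SD, n = 4; limma adjusted p = 0.832) and an interval of -0.33 to 0.04. Without array 3 the difference was -0.094, and with mean in place of median spot intensities it was -0.065. The dye term was -0.20 (adjusted p = 0.387).

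FOXL2, the factor most tied to female granulosa identity, was close to background. It had levels of 6.70, 6.68, 6.83 and 6.66 in good-donor pools and of 6.55, 6.88, 6.33 and 6.68 in poor-donor pools, pool 7 being the one below background. Ratios of -0.15, 0.20, -0.51 and 0.02 gave -0.11 ± 0.30 (SD, n = 4; limma adjusted p = 0.926) with an interval of -0.43 to 0.21. The lowest ratio is that of array 3, which holds pool 7, and without this array the difference was 0.020. The difference was also -0.023 without array 1 and -0.021 with mean spot intensities, -0.20 without array 2 and -0.24 without array 4. With local background subtracted it was -0.19, as with the deposited ratios.

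WT1 had the widest difference among the brightest probes of the genes. For that probe the levels were 7.25, 7.01, 6.54 and 7.19 in good-donor pools and 6.49, 6.70, 6.55 and 7.04 in poor-donor pools. Pools 3, 5 and 7 were the lowest, and pool 3 is a good-donor pool, so the groups overlapped. The ratios were -0.76, -0.31, 0.01 and -0.15, with a mean of -0.30 ± 0.33 (SD, n = 4), an interval of -0.57 to -0.03 and a limma p of 0.0345 unadjusted and 0.83 adjusted. The dye term was 0.23 (limma adjusted p = 0.449). The difference was -0.19 without array 1 and -0.11 with mean spot intensities. The second probe, below background in pools 3 and 7, had -0.66, -0.46, 0.06 and 0.02. The dimmest probe, below background in pools 1, 3 and 5, had -0.05, -0.03, 0.30 and 0.21, so its mean had the opposite sign. Neither of these probes entered the test.

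The pools where the brightest WT1 probe was lowest were also low in some other transcripts. These pools were picked from the WT1 values, and the share of all tested probes that were lowest in them was not computed. The values below therefore only describe the named genes and are not shown to be a pattern shared with WT1. After subtracting from each log2 level the mean of the 4 pools in the same dye, the brightest WT1 probe had -0.19, -0.24 and -0.41 in pools 3, 5 and 7 and -0.03 to 0.46 in the others. The other WT1 probes did not share this order. The second had -0.30, 0.011 and -0.54 in pools 3, 5 and 7, with -0.033 in pool 6. The dimmest had -0.12, -0.056 and 0.027 there and was lowest in pool 1, at -0.15. OVGP1, the oviduct glycoprotein gene in the surface epithelium list, had -1.84, -1.82 and -3.69 in those pools and 0.27 to 2.37 in the others. The homeobox gene EMX2, which in mice is needed for the early gonad, had -0.81, -0.05 and -0.81 there against 0.03 to 0.59. Of the 7 measured surface epithelium markers, OVGP1 and EPCAM were lower in pools 3, 5 and 7 than in every other pool, and the other 5 were not. KRT8 and KRT18 were highest in pool 7, at 1.72 and 2.47, and KRT19 and UPK3B in pool 5, at 0.95 and 0.80, while KRT7 had 0.35 in pool 5. EPCAM, KRT7 and UPK3B were named after their values were seen. WT1 is also known from the ovarian surface epithelium. The eighth listed marker, CDH1, was above background in 2 pools and was not tested. Their part in the WT1 values was not tested.

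GATA4, which acts on gonadotrophin response genes, had ratios below 0 on all 4 arrays, as the brightest NR5A2 probe did. Its levels were 13.08, 13.23, 12.76 and 12.90 in good-donor pools and 13.04, 12.85, 12.58 and 12.59 in poor-donor pools. Both donor groups stood higher on arrays 1 and 2 than on arrays 3 and 4, and pool 5 was above pools 3 and 4. The ratios were -0.04, -0.37, -0.17 and -0.31, with a mean of -0.22 ± 0.15 (SD, n = 4; limma unadjusted p = 0.0526, adjusted p = 0.830) and an interval of -0.45 to 0.004. Without array 2 the difference was -0.14.

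ESR2, the main oestrogen receptor of granulosa cells, had a mean ratio near 0. Good-donor pools had 6.73, 7.18, 7.20 and 7.12 and poor-donor pools 6.94, 7.00, 7.08 and 7.28. Pool 1 was the lowest of the 8 and pool 8 the highest. The ratios of 0.21, -0.18, -0.12 and 0.16 changed sign within each array pair, with a mean of 0.02 ± 0.20 (SD, n = 4; limma adjusted p = 0.987) and an interval of -0.25 to 0.29. The probe of ESR1 had log2 levels of 5.98 to 6.18 beside negative-control medians of 6.18 to 6.23.

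Each dye held 2 good-donor and 2 poor-donor pools, which allows a comparison within a dye, although it then sets pools from different arrays against each other. In Cy5 the mean poor minus good difference was -0.44 for the brightest NR5A2 probe, -0.56 for GATA4 and -0.33 for WT1. In Cy3 these were -0.07, 0.12 and -0.27, so that GATA4 changed sign. NR0B1 had 0.05 in Cy5 and -0.33 in Cy3, NR5A1 0.10 and -0.11, FOXL2 -0.19 and -0.03, and ESR2 0.23 and -0.19. Centred per dye, the levels of the donor groups overlapped for each of the 7 genes. A full separation with poor donors lower was found for 2.22% of the tested probes, and with poor donors higher for 2.07%. The range of a gene over the 8 centred pools was at most 0.87, in WT1, and at least 0.20, in NR5A1. No gene reached the range of 1 above which genes with the most similar pattern were to be named.

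**Figure D4:**
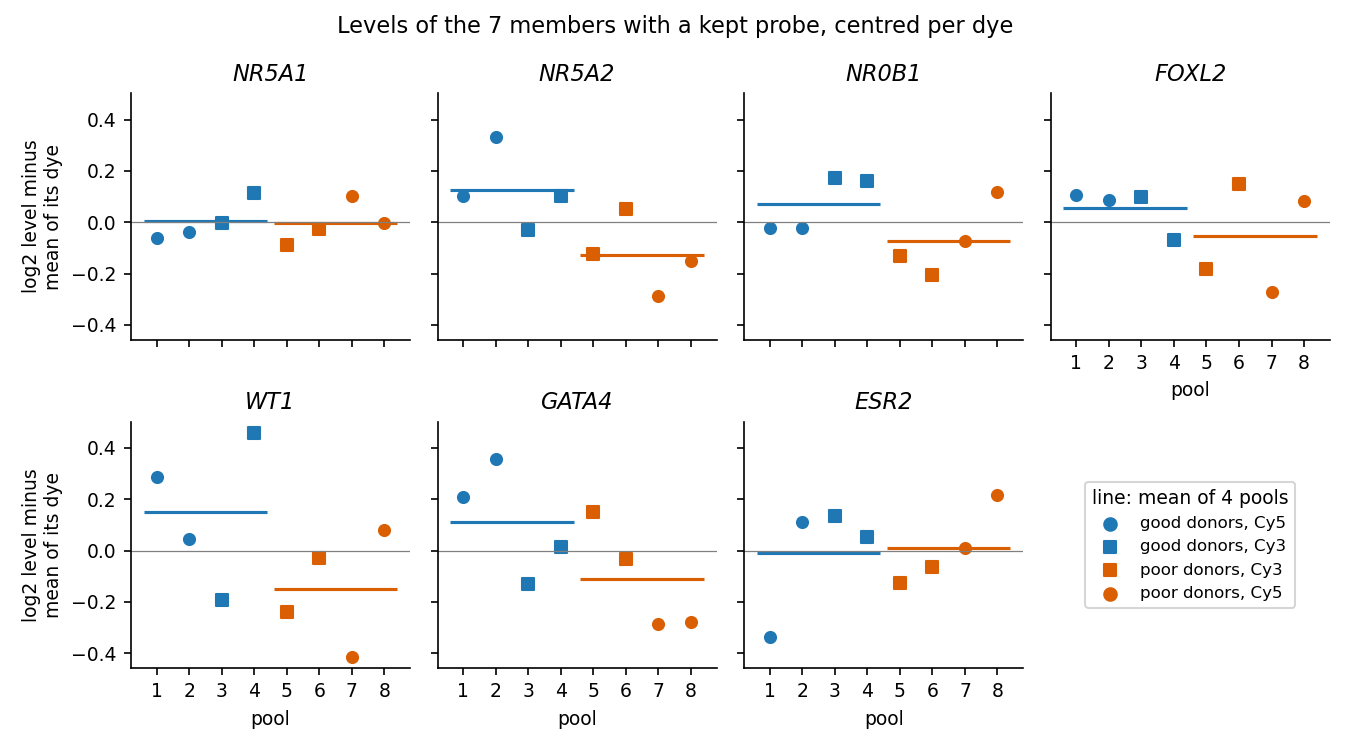
Log2 level of the brightest probe of each gene in pools 1 to 8 after subtracting the mean of the 4 pools in the same dye (vertical axis), with good donors in blue, poor donors in orange, circles for Cy5, squares for Cy3 and a line at the mean of 4 pools. The donor groups overlap in all 7 panels, and the widest range is that of WT1.

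The negative-control spots had raw means of 38.4 to 124 over the pools, and the main processing adds an offset of 50. Signal shared by both channels can damp the ratios of dim probes, and its part in the values above was not tested. When the mean of the negative controls was subtracted from each channel, a setting chosen after seeing the data, the NR5A2 ratios were -0.23, -0.24, -0.25 and -0.27 and those of GATA4 0.005, -0.26, -0.21 and -0.38. The WT1 ratios became -1.83, -0.72, -0.30 and -0.29, with a fitted difference of -0.79 (limma adjusted p = 0.834). NR0B1 had -0.32, NR5A1 -0.0072 and ESR2 0.069. FOXL2 had no ratio on array 3, because pool 7 was below the control mean, and over the other 3 arrays its fitted difference was 0.086. For NR5A1 the SD over arrays grew from 0.27 to 0.64.

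**Figure D5:**
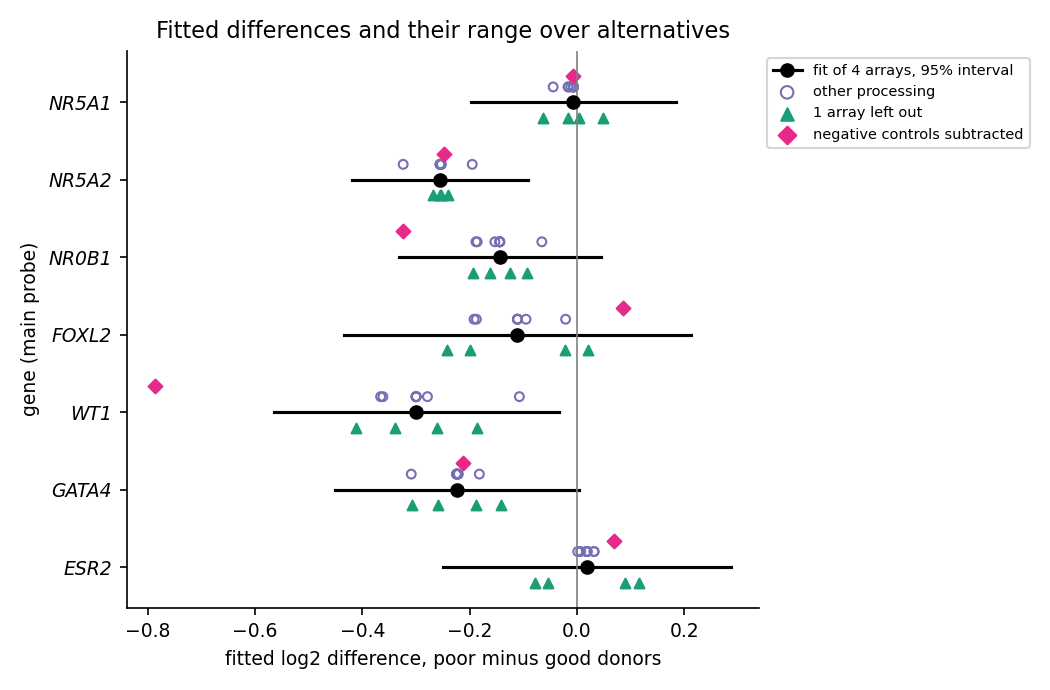
Fitted log2 difference between poor and good donors for the brightest probe of each gene, with its 95% interval (black), the values under other processing (open circles), with 1 array left out (triangles) and with the negative-control mean subtracted (diamonds). NR5A2, WT1, GATA4 and NR0B1 stay below 0 in every setting drawn, while NR5A1, FOXL2 and ESR2 have values on both sides of 0.

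Genes that work with these factors were read from lists of coregulators, early gonad factors, other nuclear receptors, target genes and fate genes. Of 15 coregulators 11 were measured and 0 passed the adjusted threshold. At an unadjusted p under 0.05, which 6.97% of all genes reached, 1 was higher and 2 lower. CITED2, a coactivator that in mouse acts with WT1 on Nr5a1, had ratios of 0.09, 0.14, 0.85 and 0.67 and a mean of 0.44 ± 0.38 (SD, n = 4; limma unadjusted p = 0.00198, adjusted p = 0.822). Its dye term of 0.32 takes up the step between the array pairs, which the SD includes and the p-value does not. The nuclear receptor corepressor NCOR1 had -0.19, 0.07, -0.72 and -0.63, with a mean of -0.37 ± 0.37. ZFPM1, a cofactor of GATA proteins that was singled out after its values were seen, had -0.30 ± 0.14 and was below 0 on all 4 arrays. Among the early gonad factors 3 of 7 were measured and 0 reached an unadjusted p under 0.05, with EMX2 at -0.12 ± 0.49 and the polycomb gene CBX2 at 0.07 ± 0.05.

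Of 15 other nuclear receptors 9 were measured, 0 passed after adjustment and 1 was lower at an unadjusted p under 0.05. This was NR3C1, the glucocorticoid receptor, with -0.21, -0.80, -0.29 and -0.28 on the arrays and a mean of -0.40 ± 0.27 (SD, n = 4; limma unadjusted p = 0.0224, adjusted p = 0.822). The oestrogen-related receptor ESRRA had -0.29 ± 0.29 and was below 0 on all 4 arrays. Among 9 genes of ovary fate 6 were measured and 0 reached an unadjusted p under 0.05, with the WNT pathway agonist RSPO1 at -0.29 ± 0.33 and FST at 0.32 ± 0.76. Of 9 genes of testis fate 4 were measured, again with 0 at that level. DMRT1 had 0.06 ± 0.07 and PTGDS -0.07 ± 0.58. SOX9, the Sertoli factor that FOXL2 represses in mouse granulosa cells, was above background in 2 good-donor and 2 poor-donor pools, at log2 levels of 6.21 to 6.49 over all pools. SOX8 and SOX10 were above background in 0 pools.

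Target genes had a wider spread of ratios between arrays than the probes of the factors. Of 20 listed targets 17 were measured, 7 with a positive and 10 with a negative difference and a median of -0.02. None passed after adjustment and 1 was lower at an unadjusted p under 0.05. The SD of the ratio over the arrays had a median of 0.68 and a maximum of 3.09 among the targets, against a median of 0.25 and a maximum of 0.33 among the 7 transcription factor genes and a median of 0.22 over all genes. STAR, which carries cholesterol into mitochondria, had ratios of -2.51, 2.27, 4.25 and -1.14, while no probe of the factors had a ratio beyond 0.83 in size. The aromatase gene CYP19A1 had -0.37, 0.89, -0.77 and -0.050, and CYP11A1, which starts steroid synthesis, had -0.67, 0.98, -0.0017 and -0.072. FSHR stood at 0.19, 0.09, -0.30 and -0.11 and AMH at 0.28, -0.52, -0.90 and -0.15. INHA, the target lower at that level, had -1.79, -1.70, 0.40 and 0.68, with a sign change between the array pairs that the dye term takes up. Its raw intensity was 49151 to 57118 in 6 pools and 20172 and 25828 in pools 5 and 6, where the highest value of any probe in the raw files was 65535, and whether this ceiling limits its ratios was not tested. INHBB, the inhibin beta B subunit, was above 0 on all 4 arrays at 0.22 ± 0.17 (SD, n = 4; limma adjusted p = 0.830). With the negative-control mean subtracted, the SD of the 7 transcription factor genes had a median of 0.61 and a maximum of 0.73, so the narrower spread above is not shown to belong to the genes.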

How the data were processed

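Spot and local background intensity were used as deposited, per the file headers, without normalization, for 4 arrays with 45212 spots each. A log2 ratio, also deposited by the authors for every probe, has a normalization not given in the sources used here. It correlated at 0.971 to 0.980 with the ratios described next over all probes, with column medians between -9.9e-05 and 0.0026, ran as poor over good, and served as an alternative. Median spot intensities were corrected with normexp (offset 50) and normalized by loess (span 0.3) within arrays in limma 3.58.1. Ratios were turned to poor over good. Levels per pool came from Aquantile normalization between arrays, without a further dye correction.

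Of 43794 probes 26181 (59.8%) passed the background threshold in every pool of the good or of the poor donors and were tested with limma and eBayes, with a dye term (2 residual and 2.51 prior degrees of freedom) and Benjamini-Hochberg adjustment over all of them. A gene stands as its tested probe of highest mean brightness. Symbols came from the platform annotation of 21790 probes, of which 1524 were updated through the synonyms of ARS-UCD2.0. All symbols of the 9 genes were current. The genes named are the 9 factors, CYP19A1, CYP11A1, STAR, INHA, AMH, FSHR and SOX9, the 2 genes of smallest p in each related list, and markers of other cells. Genes and lists were chosen with earlier results of these data known. The fit was tested on simulated data. Alternatives changed the background correction, normalization, spot summary, filter, dye term, channel model and probe choice, used the deposited ratios, or left out an array. Raw intensities and the counts by setting were added after seeing the data. No coordinates or sequences are given, because the probes' build and sequences are not given in the sources used here.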

Additional observations from a re-analysis of the deposited data

Results flagged for a closer look

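Each set of 4 values was searched for 1 value far from the others by Dixon's test at its 95% critical value. Of 36 sets over the 12 probes, 5 passed, where chance flags about 1 in 20. For the brightest NR5A2 probe the ratio of array 2, at -0.30, stood apart from the other 3 arrays at -0.24. In the 4 good-donor pools, centred per dye, FOXL2 in pool 4 was at -0.069 with the others at 0.085 to 0.10, ESR2 in pool 1 was at -0.34 with the others at 0.054 to 0.13, and the ESR1 probe, which is below background, in pool 3 was at 0.12 with the others at 0.011 to 0.018. In the 4 poor-donor pools the second WT1 probe was at -0.54 in pool 7, with the others at -0.033 to 0.041, and that pool was below background for it.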

How the results depend on the processing

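The fit called 0 probes after adjustment under each of 13 alternatives, and at an unadjusted p under 0.05 it called 1560 probes, with 2477 without a filter on dim probes, 2778 in the separate-channel fit and 1031 to 2456 when 1 array was left out. NR5A2, GATA4, WT1 and NR0B1 had negative differences in all 14 alternatives run for them, ranging from -0.32 to -0.19, -0.31 to -0.14, -0.79 to -0.11 and -0.32 to -0.065, and the median over the genes ranged from -0.21 to -0.065. The smallest adjusted p among the 7 genes was 0.336, for NR5A2 in the separate-channel fit. With an array left out NR5A1 ranged from -0.062 to 0.050, ESR2 from -0.078 to 0.12 and FOXL2 from -0.24 to 0.020, and FOXL2 had 0.086 with the negative-control mean subtracted, where its array 3 is missing. FOXL2 was not tested under the stricter filter. The cause of these changes was not tested. Each array pairs a good-donor pool with a poor-donor pool, so every ratio is a paired value, and the separate-channel fit kept that pairing with an intraspot correlation of 0.41. At an unadjusted p under 0.05, NR5A2 lost its call without array 3, without array 4 and with the negative-control mean subtracted. WT1 lost its call with median centring in place of loess, without the dye term, and without array 1, array 3 or array 4. GATA4 had no call in the main fit. It gained one with median centring, mean spot intensities, no filter on dim probes, no dye term or array 1 left out. Signals close to those of the negative controls limit NR5A1, NR0B1, FOXL2, WT1 and ESR2, and 4 arrays limit the precision of all.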
